A study of Rattus norvegicus with 8 samples.

Results

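The cholesterol and fatty acid synthesis genes described here are 34 genes that encode the enzymes of the mevalonate and sterol pathway, the regulators of that pathway, sterol carriers and efflux pumps, and the enzymes that build, elongate and desaturate fatty acids. A gene was taken where an array feature is annotated with exactly 1 gene symbol, and the feature with the highest mean was kept; 32 of the 34 genes were measured in this way, among 14506 genes in all. Hmgcs1 and Srebf1 had no such feature, so their expression is not analysed here, but their promoters are among the windows counted below. The measured genes fall into 6 of the mevalonate and isoprenoid steps, 11 of the squalene and sterol steps, 4 regulators, 3 transport genes and 8 fatty acid genes.

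RNA came from myelinating cultures, in which dissociated cells of the rat spinal cord grow axons that oligodendrocytes wrap with myelin. There were 4 groups with 2 arrays each: FGF9 for 10 days, control for 10 days, FGF9 for 24 h and control for 24 h. FGF9 cultures received 100 ng/ml of human fibroblast growth factor 9, which is secreted and acts through FGF receptors, and control cultures received none. All 4 groups were derived from spinal cords of Sprague Dawley rat embryos at embryonic day 15.5, and every sample is labelled as a myelinating culture, although the source field names astrocytes grown from neurospheres. The labels do not state whether replicates came from separate cultures, and the p-values then measure no more than the spread between arrays.

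The mevalonate pathway turns acetyl-CoA into isoprenoids, squalene and finally cholesterol. Its genes are switched on by SREBP transcription factors, which Scap escorts out of the endoplasmic reticulum and which Insig proteins hold back there when sterols are plentiful; the efflux pumps Abca1 and Abcg1 are induced by liver X receptors when sterols accumulate. Fatty acids are built from the same acetyl-CoA by Acly, Acaca and Fasn and then elongated and desaturated. Oligodendrocytes make much of the cholesterol of myelin themselves, and astrocytes make sterols and fatty acids that they can pass to neighbouring cells.

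Only 5 members had the same sign of difference in all 4 same-numbered pairs of FGF9 and control arrays. Msmo1, a sterol oxidase that removes methyl groups, Hsd17b7, a ketosteroid reductase of the same steps, Dhcr7, which catalyses the last step of one branch to cholesterol, and Scap were higher with FGF9 in all 4 pairs, and Abca1 was lower in all 4. These are 12.5% and 3.12% of the 32 members, against 14.2% and 14.1% of all genes, so these shares were no larger than those of all genes. The promoters of the 4 genes that were higher are shown because these are the members with one direction throughout. Each is the 250 bases before the gene start from RefSeq (GRCr8), read on the gene's strand: chr16:29746863-29747112 (+) for Msmo1, chr13:84722755-84723004 (-) for Hsd17b7, chr1:208444184-208444433 (+) for Dhcr7 and chr8:119184188-119184437 (+) for Scap. Capitals mark CCAAT, the box bound by NF-Y, and GGGCGG, the box bound by Sp1, on either strand (ATTGG and CCGCCC on the other strand); both factors are known partners of SREBPs.
Msmo1: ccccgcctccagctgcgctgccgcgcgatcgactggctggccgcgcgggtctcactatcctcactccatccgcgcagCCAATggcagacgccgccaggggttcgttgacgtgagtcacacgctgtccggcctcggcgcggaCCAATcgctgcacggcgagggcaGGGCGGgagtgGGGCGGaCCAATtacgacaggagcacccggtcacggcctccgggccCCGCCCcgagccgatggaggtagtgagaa
Hsd17b7: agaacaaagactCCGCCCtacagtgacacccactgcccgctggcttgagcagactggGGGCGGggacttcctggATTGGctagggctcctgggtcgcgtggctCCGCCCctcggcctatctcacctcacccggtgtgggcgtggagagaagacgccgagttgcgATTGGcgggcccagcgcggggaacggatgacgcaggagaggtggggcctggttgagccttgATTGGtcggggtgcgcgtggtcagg
Dhcr7: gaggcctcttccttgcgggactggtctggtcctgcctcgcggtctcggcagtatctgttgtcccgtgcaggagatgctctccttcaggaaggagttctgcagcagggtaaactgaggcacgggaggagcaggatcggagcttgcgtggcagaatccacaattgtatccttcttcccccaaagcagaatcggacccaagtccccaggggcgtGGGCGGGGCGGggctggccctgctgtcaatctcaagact
Scap: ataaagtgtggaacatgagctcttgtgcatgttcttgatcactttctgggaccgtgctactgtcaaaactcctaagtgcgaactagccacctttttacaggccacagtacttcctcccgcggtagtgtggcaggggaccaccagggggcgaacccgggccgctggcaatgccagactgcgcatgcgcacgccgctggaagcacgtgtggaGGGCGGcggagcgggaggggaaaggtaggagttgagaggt
The Msmo1 and Hsd17b7 stretches each hold 3 CCAAT and 3 GGGCGG boxes, the Dhcr7 stretch holds 2 GGGCGG boxes that overlap by 1 base, and the Scap stretch holds 1. Over 27 windows of 250 bases before to 50 bases after the start, which belong to 26 of the 34 genes, CCAAT was found in 20 (74.1%) against 37.5% of all 33469 windows, and GGGCGG in 22 (81.5%) against 33.1%. The 1 spelling of the sterol regulatory element searched, TCACNCCAC, was in 0 of the 27 windows and in 1.12% of all windows. These are matches of letters in a window and not binding sites.

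Medians of the 8 arrays over all 29214 features ran from 6.62 to 6.73 in log2 units. Levels of different genes are not set against each other, because each has its own probes. The arrays carry 3 name prefixes, whose meaning the labels do not give: the 24 h arrays of pair 1 are named CL1, the 24 h arrays of pair 2 and the 10-day arrays of pair 1 CL2, and the 10-day arrays of pair 2 AA1. The 2 AA1 arrays stood apart, with correlations of 0.897 to 0.939 over all features with the other 6 arrays. Those 6 correlated with each other at 0.962 to 0.989. Same-numbered FGF9 and control arrays therefore shared a prefix, and each comparison is given both from the fit of group means and from the fit with the prefix as a block, here called the block fit. Cell type markers were set against an array's own median over all features, those without a gene symbol included. The medians over the 14506 genes were higher, at 7.51 to 7.71. Above the median over all features lay all 10 neuron markers in every array and 10 or 11 of 11 astrocyte markers. So did 9 to 13 of 13 myelin markers, 6 or 7 of 7 oligodendrocyte precursor markers and 7 to 9 of 9 microglia markers. Of 6 fibroblast and pericyte markers 3 to 6 did, but only 0 to 2 of 5 endothelial and 0 or 1 of 2 Schwann cell markers.

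**Figure D1:**
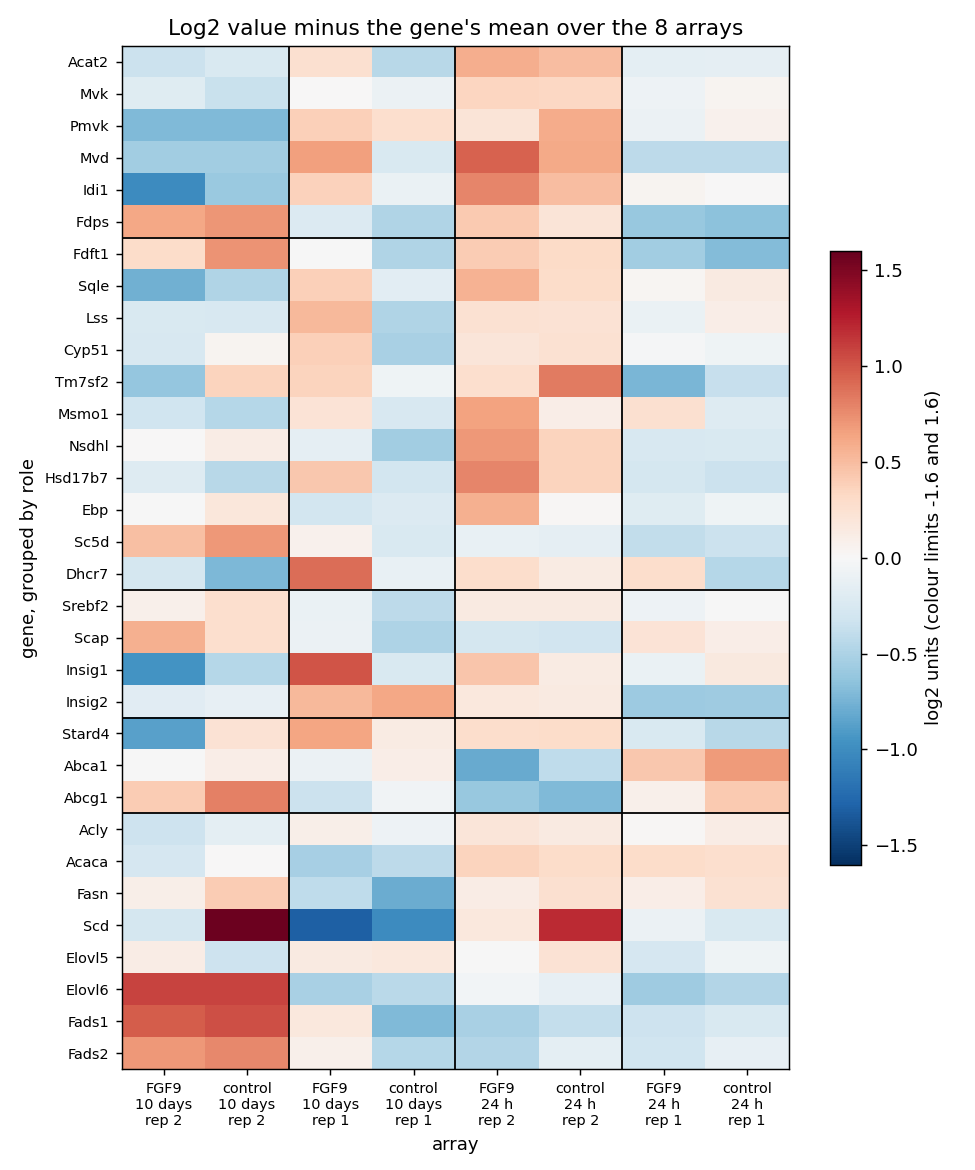
Log2 value of each of the 32 genes in each of the 8 arrays, minus the gene's own mean over the arrays (colour, log2 units); horizontal lines separate the 5 roles and vertical lines the 4 pairs. Most rows of the upper 2 blocks are red in both pair 2 arrays at 24 h (CL2), while the Fads1, Fads2 and Elovl6 rows are red in both AA1 arrays (pair 2 at 10 days).

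At 24 h the synthesis genes of FGF9 cultures differed little from those of control cultures. Of the 32 members 16 were higher and 16 lower, the median difference was 0.00, as over all genes (0.00), and single differences ran from -0.46 to 0.50 on the log2 scale. None passed limma's test at an adjusted p of 0.05 in the fit of group means (0% of all genes) or in the block fit (0% of all genes). In the block fit 2 members were under an unadjusted p of 0.05, which is 6.25% of the members against 12.4% of all genes; without the block 0 members and 280 genes were. For 29 of the 32 members the 95% interval of the block fit lay within 1 log2 unit either way of no difference, and the exceptions were Tm7sf2, Insig1 and Scd. Without the block it did so for 11 of 32. In the same arrays 9 of 9 cell cycle genes were higher with FGF9 (median 1.30), while 1 of 13 myelin markers, 0 of 11 astrocyte markers and 0 of 10 neuron markers were; their part in the members' differences was not tested. In such bulk samples fewer cells of a type and less RNA per cell cannot be told apart.

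Msmo1 read 12.70 and 13.08 in the FGF9 arrays of pairs 1 and 2 at 24 h, against 12.24 and 12.55 in the control arrays. Both FGF9 arrays were above both control arrays, by 0.46 and 0.54 within the pairs. The difference was 0.50 ± 0.265 (SE, 2 arrays a group) without the block and 0.50 ± 0.148 with it, with a 95% interval of 0.14 to 0.86 and limma adjusted p = 0.287, the smallest of any member at this time; the adjusted p was 1 without the block and 0.476 with the prefix as a random block. Dhcr7 read 10.36 and 10.36 in the FGF9 arrays, against 9.63 and 10.21 in the control arrays. Its groups did not overlap, but the pairs differed by 0.73 and 0.15 and the difference, 0.44 ± 0.212 in the block fit, did not pass (limma adjusted p = 0.469).

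Among the 17 genes from Acat2, the thiolase that starts the pathway, to Dhcr7, 12 were higher and 5 lower, with a median difference of 0.12. The pairs were not alike, since 14 were higher in pair 2 and 8 in pair 1. In both pairs 7 of the 17 were higher and 2 lower. Over all 32 members 9 were higher in both pairs and 8 lower in both, that is 28.1% and 25.0%, against 31.8% and 32.9% of all genes. The 2 genes lower in both pairs were Pmvk, a mevalonate pathway kinase, and Tm7sf2, a sterol reductase, which read 8.33 and 9.33 in the FGF9 arrays of pairs 1 and 2, against 8.69 and 9.89 in the control arrays.

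The efflux pump Abca1 stood on the other side at 24 h. It read 11.23 and 9.99 in the FGF9 arrays of pairs 1 and 2, against 11.48 and 10.39 in the control arrays. The step between pairs was larger than the difference within them, which was -0.26 and -0.40. Its difference of -0.33 had an SE of 0.133 in the block fit (95% interval -0.65 to 0.00, limma adjusted p = 0.402) and of 0.495 without the block. Of the 8 fatty acid genes 1 was higher, Acaca, and 7 lower, with a median of -0.12, and 4 were lower in both pairs. Fasn, the fatty acid synthase, had narrow groups at this time, reading 10.42 and 10.44 in the FGF9 arrays, against 10.56 and 10.57 in the control arrays. The groups did not overlap; the difference, -0.14, did not pass. Scd, the desaturase that makes oleate, read 9.54 and 9.80 in the FGF9 arrays of pairs 1 and 2, against 9.39 and 10.83 in the control arrays, so it was higher with FGF9 in pair 1 and lower in pair 2.

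At 10 days the pairs went different ways. In pair 1 24 of the 32 members were higher in the FGF9 array, with a median difference of 0.41, while in pair 2 8 were higher, with a median of -0.12; over all genes the medians were 0.01 and 0.01. Averaged over pairs 23 members were higher and 9 lower, with a median of 0.07 against 0.02 over all genes, and differences ran from -1.08 to 0.72. No member passed without the block (0% of all genes) or in the block fit, in which limma called 6.43% of all genes (3.12% rose and 3.31% fell). In the block fit 4 members were under an unadjusted p of 0.05, Dhcr7, Hsd17b7 and Scap above control and Scd below; this is 12.5% of the members, against 24.0% of all genes. Without the block 0 members and 816 genes were. In the block fit 25 of 32 intervals lay within 1 log2 unit of no difference, and those of Mvd, Lss, Tm7sf2, Dhcr7, Insig1, Stard4 and Scd did not; without the block 8 of 32 did. Both pairs were above control for 6 members and below for 6, 18.8% each, against 33.2% and 30.0% of all genes.

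Dhcr7 was the nearest to passing. It read 10.97 and 9.80 in the FGF9 arrays of pairs 1 and 2 at 10 days, against 9.96 and 9.37 in the control arrays. Within each pair the FGF9 array was higher, by 1.01 and 0.43, but the pair 2 FGF9 array lay below the pair 1 control array. The difference was 0.72 ± 0.212 in the block fit (SE, 2 arrays a group; 95% interval 0.20 to 1.24, limma adjusted p = 0.108) and 0.72 ± 0.437 without it (adjusted p = 1). Hsd17b7 read 9.07 and 8.43 in the FGF9 arrays, against 8.34 and 8.20 in the control arrays. These groups did not overlap, and the difference of 0.48 ± 0.180 in the block fit had an interval of 0.04 to 0.92 (limma adjusted p = 0.181). Msmo1 was above control by 0.47 in pair 1 and 0.13 in pair 2 at 10 days.

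Of the 17 mevalonate-to-sterol genes 16 were higher in the FGF9 array of pair 1, with a median of 0.47, and 5 in that of pair 2, with a median of -0.11. The exception in pair 1 was Ebp, a sterol isomerase. Lss, which closes squalene epoxide into the first sterol, read 11.01 and 10.24 in the FGF9 arrays of pairs 1 and 2, against 10.01 and 10.23 in the control arrays. The whole of its difference lay in pair 1, where it was 0.99, against 0.01 in pair 2. Cyp51, the lanosterol demethylase, read 11.96 and 11.33 in the FGF9 arrays, against 11.07 and 11.63 in the control arrays, a difference of 0.89 in pair 1 and -0.29 in pair 2. Mvd, the decarboxylase of the mevalonate steps, likewise stood 0.90 above control in pair 1 and 0.00 in pair 2. Pair 1 here is the pair with prefix CL2 and pair 2 that with AA1. With pair 2 left out, Lss rose in the block fit (0.99, limma adjusted p = 0.0475), which is 3.12% of the members against 3.92% of all genes called in that fit, and the member median was 0.41; the lone array of each arm is then taken to vary like the other groups.

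**Figure D2:**
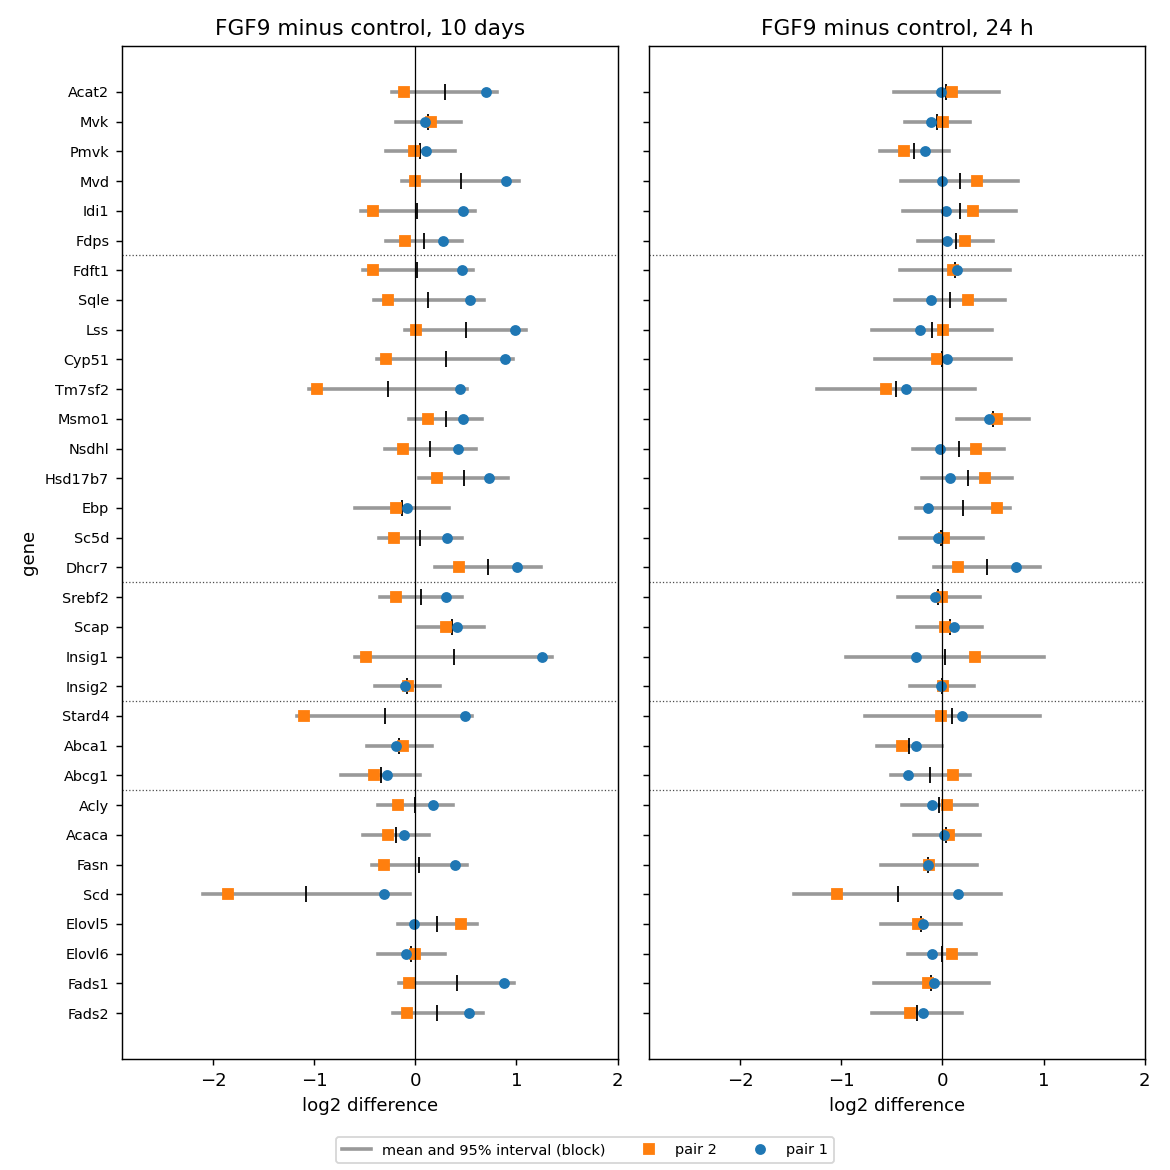
FGF9 minus control (x axes, log2 difference) for each of the 32 genes (rows) at 10 days and at 24 h; squares are pair 2, circles pair 1, ticks the mean of the pairs and grey bars its 95% interval in the block fit. At 10 days most circles lie right of 0 and most squares left of it (24 and 8 of 32 genes higher), while at 24 h both lie near 0 for most genes.

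Of the 4 regulators at 10 days, Insig1 and Srebf2 went opposite ways in the pairs, Scap was higher in both and Insig2 lower in both. Insig1, which holds SREBPs back and is itself one of their targets, read 11.18 and 9.22 in the FGF9 arrays of pairs 1 and 2, against 9.93 and 9.72 in the control arrays. The FGF9 arrays were thus the highest and the lowest of all 8 arrays for this gene, and its difference was 1.25 in pair 1 and -0.49 in pair 2 (mean 0.38 ± 0.397 in the block fit, limma adjusted p = 0.638). A lower-reading Insig1 feature differed by 0.76 and -0.24, the same way in each pair. Scap read 9.41 and 10.07 in the FGF9 arrays, against 9.00 and 9.77 in the control arrays, and its differences of 0.41 and 0.30 were close to each other (0.36 ± 0.132 in the block fit, interval 0.03 to 0.68, limma adjusted p = 0.175). Srebf2, the sterol-responsive SREBP gene, differed by 0.30 and -0.19, and Insig2 by -0.10 and -0.07.

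All 3 transport genes were below control on average at 10 days, with a median of -0.30. Abcg1 read 7.86 and 8.61 in the FGF9 arrays of pairs 1 and 2, against 8.14 and 9.01 in the control arrays, which is lower within both pairs by similar amounts (-0.34 ± 0.159 in the block fit, limma adjusted p = 0.266). Stard4, which carries sterols between membranes, read 7.77 and 6.27 in the FGF9 arrays, against 7.27 and 7.37 in the control arrays. It was higher with FGF9 in pair 1 and lower in pair 2, the pattern of Insig1. With pair 1 left out at 10 days Stard4 (-1.10), Tm7sf2 (-0.97) and Scd (-1.85) fell in the block fit. These are 9.38% of the members, against 10.4% of all genes called in that fit, and Lss, called with pair 2 left out, was not among them.

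Scd had the largest difference of any member and the widest spread. It read 8.33 and 9.36 in the FGF9 arrays of pairs 1 and 2 at 10 days, against 8.63 and 11.21 in the control arrays. Both pairs were below control, with differences of -0.31 and -1.85, and the untreated AA1 array held the highest value of the 8. The difference of -1.08 had an SE of 0.419 in the block fit (95% interval -2.10 to -0.05, limma adjusted p = 0.191) and of 0.907 without it. The fatty acid genes as a group were divided, 5 of 8 being above control with a median of 0.02. Fads1, the desaturase that makes arachidonate, read 11.86 and 12.66 in the FGF9 arrays, against 10.98 and 12.72 in the control arrays. It differed by 0.88 in pair 1 and -0.06 in pair 2, and Fads2, its partner desaturase, by 0.53 and -0.08. Elovl5, an elongase of polyunsaturated fatty acids, went the other way, with -0.01 in pair 1 and 0.45 in pair 2.

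**Figure D3:**
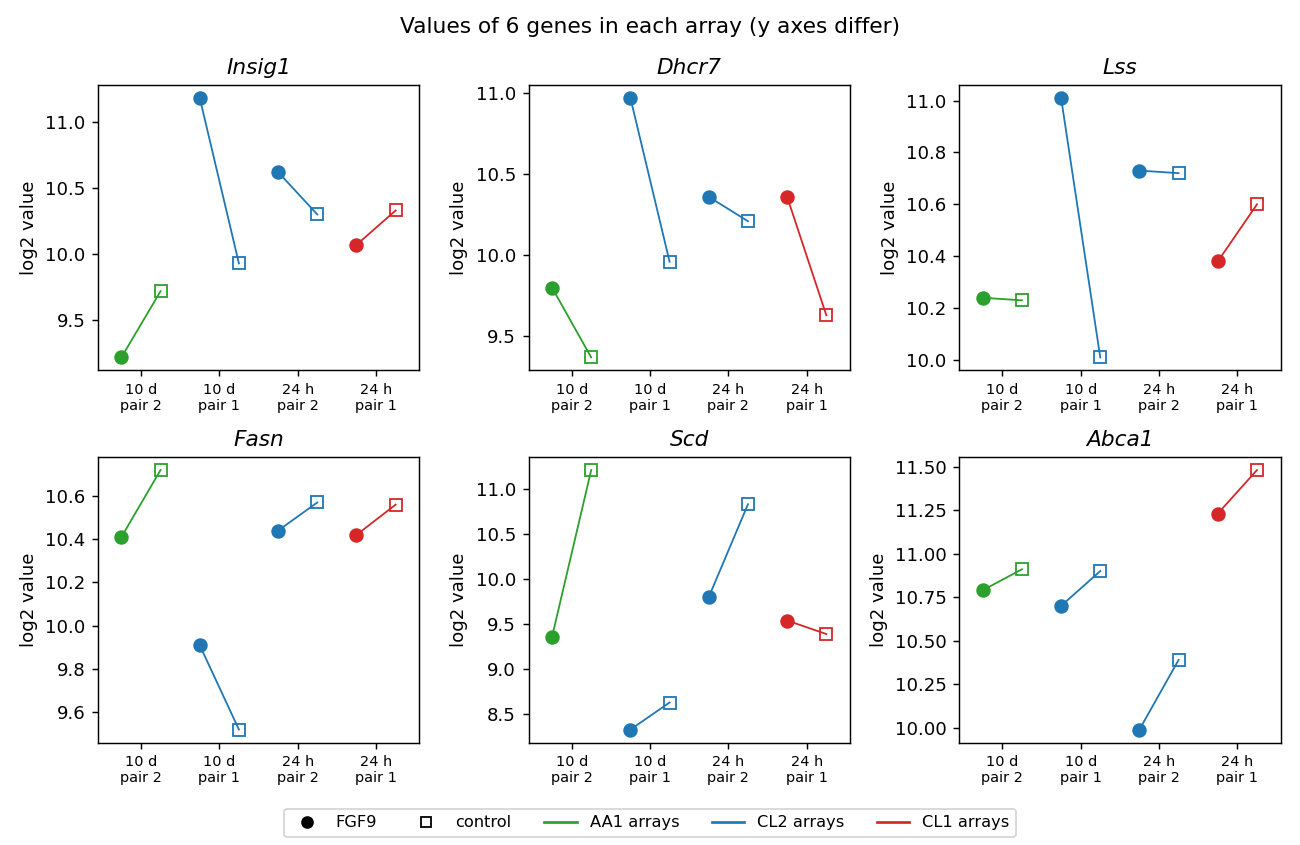
Log2 values (y axes, which differ) of Insig1, Dhcr7, Lss, Fasn, Scd and Abca1 in each of the 8 arrays; filled circles are FGF9, open squares control, lines join the arrays of a pair and colours mark the array prefixes. Insig1 lines slope in opposite directions between the 10-day pairs (differences of 1.25 and -0.49), while every Dhcr7 line runs from a higher FGF9 value to a lower control value and every Abca1 line from a lower to a higher one.

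The FGF9 effect at 10 days minus that at 24 h was above 0 for 20 members and below for 12, with a median of 0.13 against 0.00 over all genes. No member passed in either fit, beside 0% of all genes in the fit of group means and 0.0483% in the block fit, and 0 members were under an unadjusted p of 0.05 in either fit, against 276 and 1866 genes in the same fits. Elovl5 came nearest in the block fit (0.43 ± 0.226, 95% interval -0.12 to 0.99, limma adjusted p = 0.489). The intervals of 21 of the 32 lay within 1 log2 unit either way in the block fit, and of 3 of 32 without the block. Acaca, the carboxylase that commits acetyl-CoA to fatty acids, was above control in both pairs at 24 h (0.02 and 0.06) and below in both at 10 days (-0.11 and -0.27), and this difference between times did not pass either.

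In untreated cultures more members were lower than higher at 10 days against 24 h, no member passed, and the direction of the member median depended on a single array. Of the 32 members 10 were higher and 22 lower, with a median of -0.22 against 0.00 over all genes, and 9 had both 10-day arrays below both 24 h arrays while 0 had both above. That is 28.1%, against 13.6% of all genes below and 13.8% above. Without the control array of pair 1 at 10 days the member median was 0.02, and without that of pair 2 at 24 h it was -0.03; both are CL2 arrays. Limma called 0% of all genes in the fit of group means and 0.00689% in the block fit. Since CL2 alone holds both times, the block fit takes this time difference from the CL2 arrays, those with FGF9 included. The FGF9 effect, averaged over both pairs of a time, is removed there. It is thus not a plain difference of control arrays: for Dhcr7 it was 0.04, against -0.25 between the CL2 control arrays. In the block fit the median was -0.37 and 12 members, or 37.5%, were under an unadjusted p of 0.05, against 13.7% of all genes; 9 of these 12 were lower (Acat2, Mvk, Mvd, Fdps, Nsdhl, Hsd17b7, Acaca, Fasn and Scd) and 3 higher (Insig2, Abca1 and Abcg1). The smallest adjusted p among members was 0.983 without the block and 0.184 with it, both for Acaca, and without the block 0 members and 415 genes were under 0.05 unadjusted. The sign differed between the fits for 8 of the 32, and 15 of 32 block intervals lay within 1 log2 unit, against 7 of 32 without the block.

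Acaca read 8.93 and 9.35 in the control arrays at 10 days, against 9.62 and 9.64 at 24 h. The 10-day arrays were both lower, with a difference of -0.49 ± 0.211 without the block and -0.68 ± 0.163 with it (SE, 2 arrays a group, 95% interval -1.08 to -0.28, limma adjusted p = 0.184). Fasn read 9.52 and 10.72 in pairs 1 and 2 at 10 days, against 10.56 and 10.57 at 24 h. The CL2 array was low and the AA1 array was not. Its block difference of -0.87 ± 0.236 followed the CL2 arrays, where the control arrays differed by -1.05. Nsdhl, a sterol dehydrogenase, read 10.14 and 10.81 at 10 days, against 10.45 and 11.05 at 24 h, with a block difference of -0.87 ± 0.225 (limma adjusted p = 0.193) and -0.27 without the block. Abcg1 was above its 24 h level in the block fit by 0.57, and Abca1 by 0.53, although without the block Abca1 differed by -0.03.

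Prefix CL2 is the 1 prefix with a control array at both times, and there 29 of 32 members were lower at 10 days, among them all 17 mevalonate-to-sterol genes (median -0.66) and all 8 fatty acid genes (median -0.32). Over all genes 7187 of 14506 were lower in this pair of arrays, with a median of 0.00. The largest gap was that of Scd, which read 8.63 in the 10-day array against 10.83 in the 24 h array. Insig2, Abca1 and Abcg1 were the 3 members above their 24 h value (0.48, 0.51 and 0.65). Between the same arrays 11 of 13 markers of myelin and mature oligodendrocytes were higher at 10 days (median 0.99), as were 9 of 11 astrocyte and 9 of 9 microglia markers, while 9 of 10 neuron markers were lower (median -0.59); their part in the result was not tested. The same untreated 10-day array is the control of pair 1 at 10 days, so the higher FGF9 values there and the lower control values here share it. Each side here is 1 array, and the 24 h array also enters the order of replicates described next. Against their means over the 8 arrays, the 17 mevalonate-to-sterol genes had a median of 0.31 in that 24 h array. In the control array of pair 1 at 24 h it was -0.20, and in the 10-day array -0.25.

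The clearest order among arrays was between replicates at 24 h. Both pair 2 arrays were above both pair 1 arrays for 22 of 32 members and below for 4, which is 68.8% and 12.5%, against 28.4% and 24.7% of all genes. Among the 17 mevalonate-to-sterol genes it was 15 above and 0 below, and pair 2 exceeded pair 1 by a median of 0.74 in FGF9 arrays and 0.52 in control arrays. Fdps, which makes farnesyl diphosphate, read 10.48 and 10.27 in the FGF9 and control arrays of pair 2, against 9.45 and 9.41 in those of pair 1. Mvd read 9.23 and 8.89 in the FGF9 and control arrays of pair 2, against 7.86 and 7.86 in pair 1. The step between pairs exceeded the difference within pairs for both genes. The 4 genes below in pair 2 were Scap, Fads1 and the efflux pumps Abca1 and Abcg1; Abcg1 read 7.59 and 7.49 in the FGF9 and control arrays of pair 2, against 8.28 and 8.62 in pair 1. With 1 prefix in each pair at 24 h, prefix and replicate cannot be told apart.

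Some lists of cell type markers were ordered by pair as well, and others were not. All 10 neuron markers had both pair 2 arrays above both pair 1 arrays at 24 h, and 10 of 13 myelin markers and 7 of 9 microglia markers had them below. Over all genes 28.4% were above and 24.7% below. Of 11 astrocyte markers 2 were above and 1 below, and 8 overlapped. Among 7 oligodendrocyte precursor markers 1 was above and 2 below, and among 6 fibroblast and pericyte markers 2 and 1. Endothelial markers had 2 above and 2 below of 5, and both Schwann cell markers were below. The summed level of the 13 myelin markers spanned 13.29 to 14.84 on the log2 scale in the FGF9 arrays at 24 h and 14.01 to 15.27 in the control arrays, and Mbp, a main protein of myelin, read 10.78 and 11.06 in the FGF9 and control arrays of pair 2, against 12.29 and 12.67 in pair 1. The summed level of the 10 neuron markers spanned 13.77 to 14.71 in FGF9 arrays and 13.90 to 14.97 in control arrays. The part of cell composition in the order of the sterol genes was not tested.

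At 10 days the replicates differed by gene group. The AA1 pair was above the CL2 pair for 14 members and below for 11, which is 43.8% and 34.4%, against 28.7% and 31.6% of all genes. Of the 8 fatty acid genes 6 were above and 2 below, and pair 2 exceeded pair 1 by a median of 0.55 in FGF9 arrays and 1.21 in control arrays. Elovl6, an elongase of saturated fatty acids, read 12.21 and 12.21 in the FGF9 and control arrays of pair 2, against 10.61 and 10.70 in those of pair 1. FGF9 and control values of Elovl6 were alike within each pair, and the pairs lay apart. The mevalonate-to-sterol genes were split, with 5 above and 7 below, Idi1, the isomerase of isoprenoid units, being below (9.48 and 9.90 in the FGF9 and control arrays of pair 2, against 10.86 and 10.39 in pair 1). In the same arrays 12 of 13 myelin markers and 5 of 6 fibroblast markers were below in pair 2, the latter group with median differences of -3.36 in FGF9 arrays and -3.53 in control arrays, and 6 of 10 neuron markers were above. Of 10 housekeeping genes 6 were below in pair 2 and 1 above, with median differences of -0.44 in FGF9 arrays and -0.53 in control arrays, so levels in the AA1 and CL2 arrays are set side by side here with that gap between them.

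**Figure D4:**
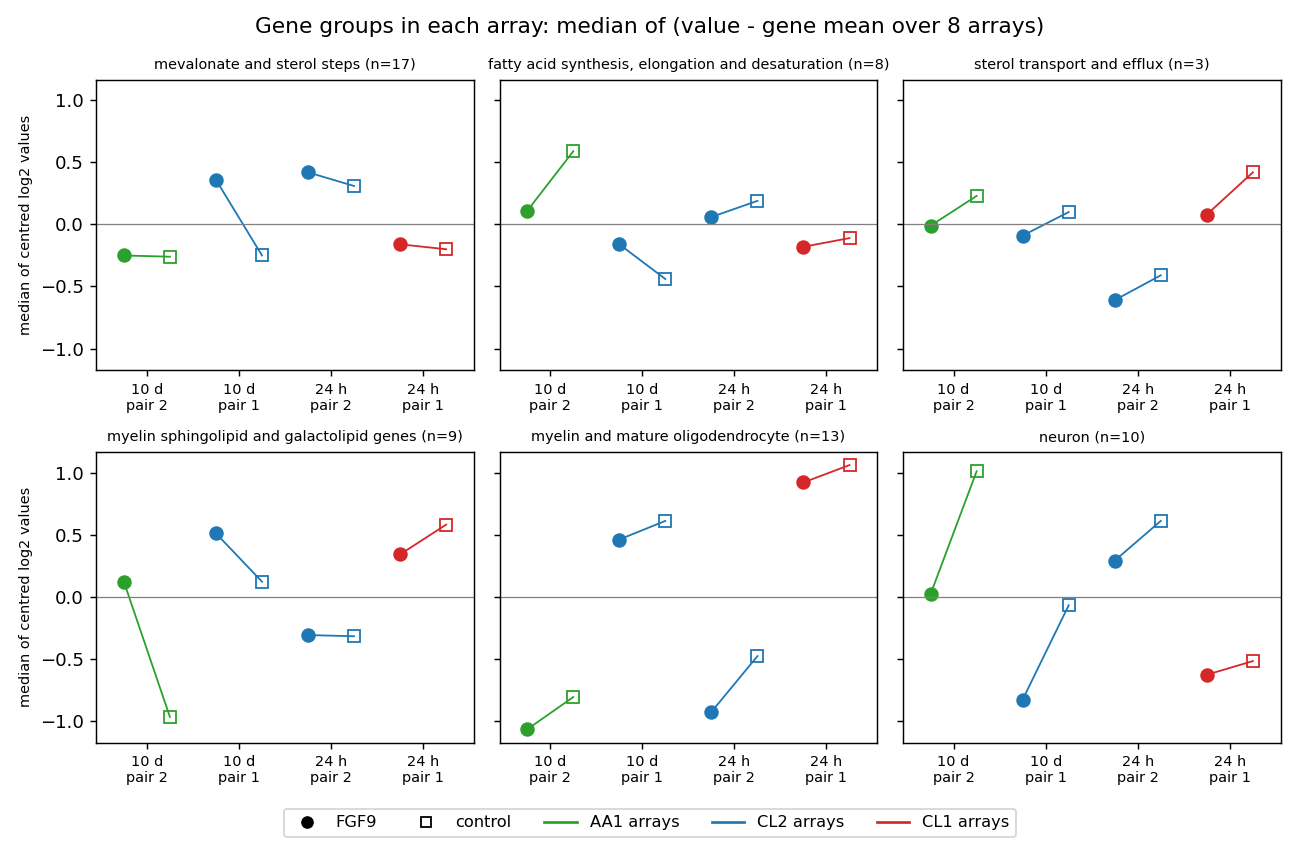
Median over the genes of a group of the log2 value minus the gene's mean over the 8 arrays (y axes), in each array; filled circles are FGF9, open squares control, and colours mark the array prefixes. The 17 mevalonate-to-sterol genes are high in pair 2 at 24 h (0.42 and 0.31) and in the FGF9 array of pair 1 at 10 days (0.36) and lie between -0.16 and -0.26 in the other 5 arrays, while the 13 myelin markers are low in pair 2 at both times.

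Neighbouring lipid genes gave a few calls in the block fit at 10 days, all of them lost without the block. In that fit limma called 6.43% of all genes, and the shares in the next 2 lists, 1 of 23 and 1 of 24, were no larger. Of 23 other measured sterol genes 12 were higher and 11 lower at 10 days, with a median of 0.00 against 0.02 over all genes, and 1 rose. This was Vldlr, a lipoprotein receptor, with 11.41 and 10.25 in the FGF9 arrays of pairs 1 and 2, against 10.28 and 9.59 in the control arrays (0.89 ± 0.164, limma adjusted p = 0.0378; 0.988 without the block). Nr1h2, a liver X receptor that drives Abca1 and Abcg1, was above control by 0.65 and did not pass (limma adjusted p = 0.0641). Of 24 other fatty acid and triglyceride genes 14 were higher, with a median of 0.06, and 1 fell. This was Acsl1, which activates fatty acids with coenzyme A, with 8.93 and 7.89 in the FGF9 arrays, against 9.72 and 8.57 in the control arrays (-0.74 ± 0.135, limma adjusted p = 0.0378; 1 without the block). Thrsp, a lipogenic gene induced by thyroid hormone, read 10.19 and 9.52 in the FGF9 arrays, against 7.52 and 8.70 in the control arrays; its difference of 1.74 ± 0.432 did not pass (limma adjusted p = 0.0716).

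Averaged over the pairs, all 9 measured genes of myelin sphingolipid and galactolipid synthesis or breakdown were higher with FGF9 at 10 days. Their median was 0.59, against 0.02 over all genes. In pair 1 8 were higher and 1 lower (median 0.31), and in pair 2 all 9 were higher (median 0.64). In the block fit 2 of them rose, where 3.12% of all genes rose and 3.31% fell. Fa2h, which hydroxylates the fatty acids of myelin lipids, read 8.96 and 9.78 in the FGF9 arrays of pairs 1 and 2, against 7.81 and 8.88 in the control arrays. Ugt8, which makes galactosylceramide, read 12.15 and 10.01 in the FGF9 arrays, against 11.35 and 9.44 in the control arrays. Both genes were higher within each pair, Fa2h by 1.03 ± 0.139 (limma adjusted p = 0.0220) and Ugt8 by 0.68 ± 0.139 (adjusted p = 0.0469); without the block the SEs were 1.07 and 1.08 and the adjusted p was 1 for both. A list of 7 markers of oligodendrocyte precursors and newly forming oligodendrocytes had 6 higher in these arrays. In the block fit 3 of them rose: Cspg4, a precursor marker, and Enpp6 and Bcas1, which are known from newly forming oligodendrocytes. Pdgfra, the defining precursor marker, was the exception, with differences of -0.52 and -0.01 in pairs 1 and 2. Markers of mature myelin were higher for 6 of 13 with 0 called, and those of neurons for 0 of 10, of which 8 fell in the block fit; their part in these differences was not tested. At 24 h Fa2h stood below control (-0.96 ± 0.139) and did not pass (limma adjusted p = 0.134).

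Genes of fatty acid oxidation, which burn what the synthesis genes make, were lower with FGF9 at 24 h in both pairs for 14 of 16. Their median was -0.20, and 0 passed in either fit. Over all genes 32.9% were lower in both pairs and 0% passed. Acadl, a mitochondrial acyl-CoA dehydrogenase, had the smallest unadjusted p of the list and read 9.62 and 8.99 in the FGF9 arrays of pairs 1 and 2, against 10.09 and 9.30 in the control arrays. At 10 days 12 of the 16 were higher, with medians of -0.14 in pair 1 and 0.39 in pair 2. All 11 astrocyte markers were also lower in both pairs at 24 h (median -0.70), with a summed level of 14.69 to 15.01 in FGF9 arrays and 15.62 to 15.67 in control arrays; their part was not tested.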

How the data were processed

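Total RNA of rat myelinating cultures was labelled and hybridized to 8 Affymetrix arrays of the Rat Gene 1.0 ST type. The deposited values are on a log2 scale, read from the values themselves, since the labels do not state it. Partek 6.5 and GCRMA, which corrects background and summarizes probes, were applied by the authors, per the submitters' processing notes; in which order is not given in the sources used here. No further normalization was applied.

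Of 29214 features, 15310 had 1 gene symbol, 323 several and 13581 none in the platform annotation; features with 1 symbol gave 14506 genes, with the highest-mean feature kept for the 527 genes that had more. A mean for each of the 4 groups was fitted over the 8 arrays with limma 3.58.1 in R 4.3.3 (lmFit, then eBayes), which left 4 residual degrees of freedom. P-values were adjusted over all genes by Benjamini-Hochberg, and an adjusted p under 0.05 was called. Errors are SEs of these fits. The number of arrays limits the precision. The alternative with the array name prefix as a replicate block left 2 residual degrees of freedom; the FGF9 differences are the same in both fits and the errors differ. The pairing comes from shared replicate numbers and prefixes: after removal of group means, same-numbered arrays correlated at 0.757 at 24 h and 0.819 at 10 days over all genes. The fits were also run on simulated data with independent noise and known differences at 10 days, which does not test the disagreement between pairs seen here.

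The members, the gene lists and the rule for naming genes were chosen with earlier results of these data known. Any measured member could be named, and not all of them are, with up to 4 genes of each other list by the smallest unadjusted p in the block fit of a comparison. Other alternatives were the prefix as a random block, leaving out each array or pair, quantile normalization, subtracting array medians, dropping dim genes (below the 30th percentile of the mean) and averaging the features of a gene.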

Additional observations from a re-analysis of the deposited data

How the results depend on the processing

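No member passed in the fit of group means with any single array left out, or under quantile normalization, subtracted array medians, dim genes dropped (all 32 were kept), averaged features, the prefix as a random block (correlation 0.654) or the replicate block. The smallest adjusted p of a member at 10 days was 1 in the fit of group means, 0.108 with the replicate block and 0.212 with the random block. The replicate block called 933 genes at 10 days, 7 for the difference of effects and 1 for the control times, where the fit of group means called 0; the random block called 151 and 4. Without 1 array or pair the number of genes called ran from 0 to 237 at 24 h, from 0 to 1506 at 10 days, from 0 to 322 for the difference and from 0 to 2 for the control times, and the number of members called from 0 to 3 at 10 days. Without a pair each arm keeps 1 array at that time, so the counts then measure no spread at that time. With the replicate block, leaving out a pair gave 237 genes at 24 h (either 10-day pair), 469 (either 24 h pair), 1506 and 569 (pair 1 and pair 2 at 10 days) genes at 10 days, and 9 for the difference without pair 2 at 10 days. Without 1 array or pair the member median ran from -0.20 to 0.15 at 24 h, from -0.12 to 0.41 at 10 days, from -0.17 to 0.34 for the difference and from -0.49 to 0.02 for the control times. With the AA1 arrays left out and no block, an alternative added after seeing the data, the member median at 10 days was 0.41. The cause of these shifts was not tested. The control time difference could not be estimated with the block when pair 2 at 24 h or pair 1 at 10 days was left out. Precision is limited by 2 arrays a group and, in the block fit, by 2 residual degrees of freedom.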
